A study of Mus musculus with 4 samples.

Results

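The LY6 family surface proteins described here are the 7 genes Ly6d, Ly6a, Ly6e, Ly6k, Ly6c1, Ly6c2, and Lynx1 of mouse splenic B cells, out of 31053 genes in the feature table. They were chosen by their measured levels in these libraries and in the cells rich in Ccl3 and Ccl4, so every value below is a description and none was put to a test. All 7 symbols were found in the table, and each had at least 1 UMI (unique molecular identifier, which stands for 1 captured mRNA molecule) in the 18534 cells kept of 19920. A cell was kept when 1000 or more of its genes were detected and mitochondrial genes held less than 10% of its UMIs.

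LY6 proteins are small and share a finger-like fold that is held by disulfide bonds. Most of them, and the gene products described here among them, are tied to the outer leaflet of the plasma membrane by a glycosylphosphatidylinositol (GPI) anchor. In mice most of the lymphocyte genes of the family lie together on chromosome 15. Ly6d marks the progenitors that commit to the B lineage and stays on in B cells, Ly6a encodes Sca-1, known from hematopoietic stem cells and as an interferon-induced gene of lymphocytes, and the Ly6c proteins are best known from monocytes and memory T cells.

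The cells were WT B cells purified from the spleen of C57BL/6 mice by removal of other cells, profiled with droplet-based scRNA-Seq of the 3' ends of transcripts. Bregs-CpG (2 samples) were kept for 3 days with CpG B ODN 1668, a TLR9 agonist, and Bregs-TLR (2 samples) had the same culture and also received LPS, PMA, and ionomycin for the last 5 hours, so that all 4 samples share the CpG culture. The cells were activated in vitro, and no untreated cells are among them. The barcodes number 4 libraries from 5 to 8 but name no sample. No library could be placed in Bregs-CpG or Bregs-TLR, and the values below compare libraries, not the conditions.

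Libraries 5, 6, 7, and 8 kept 4196, 4714, 5621, and 4003 cells, with 44842982 to 63638158 UMIs each, and their median cell held 8752, 8785, 10355, and 10077 UMIs. Mitochondrial genes took 7.22%, 7.18%, 4.61%, and 4.65% of the UMIs of the median cell, so that libraries 5 and 6 stood apart from libraries 7 and 8 in this measure too. Levels are given in CPM, the UMIs of a gene per 1000000 UMIs of all genes. All 6 B cell markers reached 10 CPM in each library, with a summed level of 7299 to 14449 CPM. The 6 T cell markers summed to at most 0.788 CPM, the 6 monocyte or macrophage markers to at most 2.98 CPM, the 5 dendritic cell markers to at most 5.62 CPM, and the 5 neutrophil markers had no UMI. The 4 erythroid markers summed to 4.62 and 4.32 CPM in libraries 5 and 6 and to 219 and 285 CPM in libraries 7 and 8, through Hbb-bt, while Hba-a1 had no UMI. The 3 endothelial markers summed to 92.3, 95.8, 51.4, and 45.6 CPM in libraries 5, 6, 7, and 8, through Pecam1, which B cells also express, while Cdh5 and Kdr were at most 0.446 CPM. The part of these markers in the results was not tested. Of the barcodes of cells kept, 28 occurred in more than 1 library. Intervals in brackets are 95% limits and cover counting error only, since nothing ties the cells of a library to a mouse or a culture.

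All 7 genes lie on chromosome 15 (GRCm38) within 364119 bases, between positions 74747852 and 75111970. In order they are Lynx1 (74747852 to 74753046), Ly6d (74762056 to 74763620), Ly6k (74796874 to 74799986), Ly6e (74955051 to 74959905), Ly6a (74994877 to 74998031), Ly6c1 (75044018 to 75048830), and Ly6c2 (75108158 to 75111970). All are protein coding, and all but Ly6e are on the minus strand. Lynx1 and Ly6d are neighbors on the same strand, and 9009 bases separate the end of the one from the start of the other, with Lynx1 downstream of Ly6d. The span holds 17 other annotated genes, of which 11 are in the feature table. None of these 11 reached 10 CPM in any library, and 3, named after their values were seen, reached 1 CPM. They were Gml, which also encodes a LY6 protein, with 7.14 CPM in library 5 and 0.314 CPM in library 7, Gml2 with 2.36 and 0.220 CPM, and the noncoding Gm39556 with 7.65 and 1.19 CPM. Ly6k overlaps the antisense gene Gm17189, whose level was at most 0.156 CPM. In a list of the wider LY6 family, 0 of the 30 genes in the feature table that are not members, Gml and Gml2 included, reached 10 CPM.

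Ly6d was by far the most abundant member. Its level was 5270 CPM (5249 to 5291) in library 5, 5202 CPM (5182 to 5222) in library 6, 376 CPM (371 to 381) in library 7, and 403 CPM (397 to 408) in library 8. In library 5 it ranked 47th of 31053 genes. Its level was thus high in libraries 5 and 6 and low in libraries 7 and 8.

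Ly6e, whose protein is known for its part in the entry of viruses into cells, came next. Its level was 1150, 1212, 148, and 165 CPM in libraries 5, 6, 7, and 8. Ly6a (Sca-1) stood at 580, 603, 86.8, and 90.4 CPM. Both were also higher in libraries 5 and 6 than in libraries 7 and 8.

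Ly6k, known from testis and from sperm function, was at 113, 99.4, 23.5, and 25.3 CPM. Lynx1, best known as a modulator of nicotinic acetylcholine receptors in the brain, was at 111, 116, 12.2, and 12.2 CPM. Ly6k and Lynx1 were close to each other in library 5, and their order changed from library 5 to library 6. Since the counts come from 3' ends, they are not expected to grow with transcript length. How well each transcript was captured was not measured, so levels of different genes can be compared only roughly.

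Ly6c2 and Ly6c1 were at the edge of detection. Ly6c2 had 38, 52, 12, and 16 UMIs in libraries 5, 6, 7, and 8, or 0.847, 1.01, 0.189, and 0.350 CPM, and Ly6c1 had 4, 2, 0, and 0 UMIs. For the counts of 0, the upper 95% limit was 0.0580 CPM in library 7 and 0.0808 CPM in library 8, and 3 counts would be 0.0471 and 0.0657 CPM. The last 300 bases of the Ly6c1 and Ly6c2 transcripts were 93.5% identical, so a read of one can be taken for the other and the division of UMIs between them is uncertain. For Ly6a the closest transcript end was that of Ly6i, with 82.5% identity, and Ly6i had at most 7 UMIs in a library.

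The promoters of Ly6c1 and Ly6c2 are shown because only these 2 of the 7 members had a promoter available. Both stayed near 0, and their transcript ends were the most alike among the members. The sequences are those of RefSeq on GRCm38.p6, minus strand, and hold the 250 bases before the transcript start, at chr15:75048838-75049087 for Ly6c1 and chr15:75111972-75112221 for Ly6c2. Another promoter of each gene, at chr15:75048664-75048913 for Ly6c1 and chr15:75111938-75112187 for Ly6c2, is not shown. Capitals mark the longest run of bases that both shown sequences share. This run holds 20 bases and begins at position -40 of Ly6c1 and at position -65 of Ly6c2, counted from the start used here.
Ly6c1: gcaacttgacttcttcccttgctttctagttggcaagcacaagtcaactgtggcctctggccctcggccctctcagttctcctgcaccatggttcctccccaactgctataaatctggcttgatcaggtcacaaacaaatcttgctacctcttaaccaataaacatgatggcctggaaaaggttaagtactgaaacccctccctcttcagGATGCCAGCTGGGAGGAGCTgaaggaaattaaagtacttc
Ly6c2: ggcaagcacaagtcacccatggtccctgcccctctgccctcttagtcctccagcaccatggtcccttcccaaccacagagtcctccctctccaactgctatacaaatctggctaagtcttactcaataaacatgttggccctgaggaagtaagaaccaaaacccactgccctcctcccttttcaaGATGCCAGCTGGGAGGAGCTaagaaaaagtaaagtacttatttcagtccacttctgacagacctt
Over their length, 59.0% of the aligned positions of these promoters were identical. On both strands, neither held the interferon-stimulated response element (GAAA, any 2 bases, and GAAA), the gamma-interferon activation site TTCNNNGAA, the E-box CAGGTG, or the AP-1 motif TGANTCA. Among 32851 mouse promoters of the same length, 2.98%, 7.02%, 17.2%, and 6.75% held these motifs. The table of promoters used here has an entry for 2 of the 7 members.

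**Figure D1:**
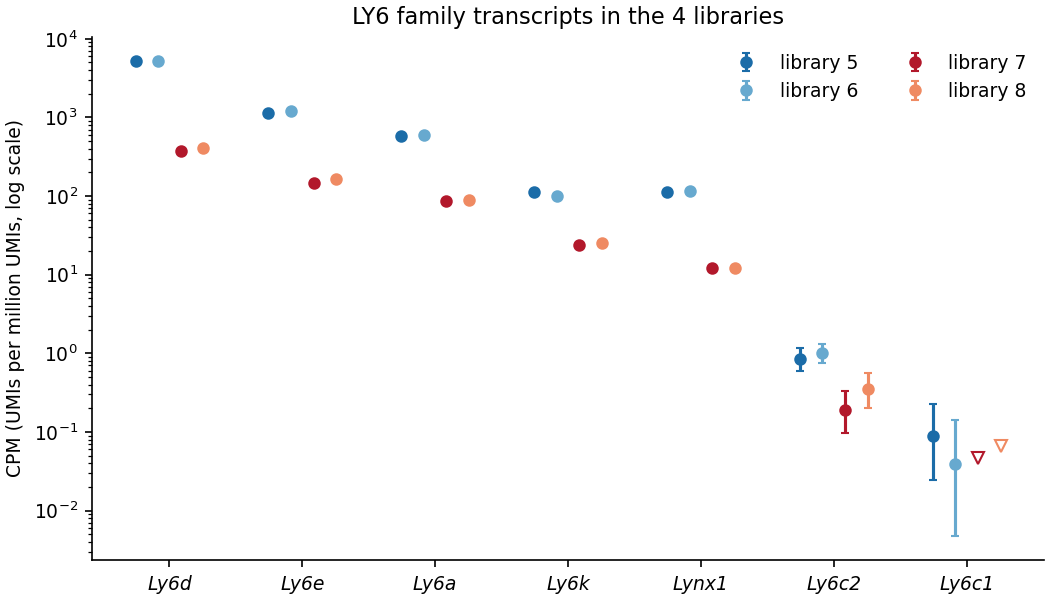
Level of each LY6 family transcript in libraries 5 to 8, in CPM on a log axis, with points for libraries, bars for 95% Poisson intervals and open triangles for the level that 3 counts would give where no UMI was seen. Ly6d was at 5270 and 5202 in libraries 5 and 6 and at 376 and 403 in libraries 7 and 8, and Ly6c2 stayed near or below 1.

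Between libraries the ratios were taken in 4 pairs. Library 6 over library 5 and library 8 over library 7 differed little for the 5 abundant members. Across Ly6d, Ly6a, Ly6e, Ly6k, and Lynx1 the log2 ratio lay between -0.19 and 0.08 in the first pair and between 0.00 and 0.16 in the second. In these pairs, 0.0465% of 6452 genes and 0.123% of 6492 genes were at least 2-fold lower and 0.0155% and 0% at least 2-fold higher. None of these 5 members was either. Ly6c1 and Ly6c2 were under the filter of 10 CPM.

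For library 7 over library 5, Ly6d had a log2 ratio of -3.81 (-3.83 to -3.79), which is 14.0-fold lower, and for library 8 over library 6 one of -3.69 (-3.71 to -3.67), which is 12.9-fold lower. Lynx1 came next, with -3.18 (-3.29 to -3.07) and -3.24 (-3.37 to -3.12). The log2 ratios of Ly6e were -2.96 and -2.88, those of Ly6a -2.74 and -2.74, and those of Ly6k -2.27 and -1.97. All 5 members of at least 10 CPM were at least 2-fold lower in each of these pairs, against 9.75% of 6646 genes and 11.4% of 6630 genes. Their level was 10 CPM or more in every library, so none passed the filter only where it was high. The members were chosen with these levels known, and the share of genes is given for scale. The median log2 ratio of all genes was 0.28 and 0.16, that is, away from the direction of the members. Among all genes Ly6d ranked 40th and 53rd from the lowest ratio, and Ly6k, the least lowered of the 5, ranked 177th and 269th. Ly6c2, with few UMIs, had a log2 ratio of -2.17 (-3.24 to -1.20) and -1.52 (-2.43 to -0.69). A single cell held 6 of its 52 UMIs in library 6, and another held 5 of 16 in library 8. The intervals of Ly6c2 are thus too narrow for the variation between cells. Fewer cells with a transcript and fewer transcripts in each cell cannot be told apart in such sums, and the counts per cell are given next.

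Genes of the GPI anchor were looked up in a list of 28 genes of its synthesis and transfer. Of 15 with at least 10 CPM, 0 were at least 2-fold lower and 1 was at least 2-fold higher in either pair. That gene was Pigf, with 15.8 CPM in library 5 and 35.5 CPM in library 7, and the median log2 ratio of the 15 genes was 0.40 and 0.28. Among all genes of at least 10 CPM, 9.75% and 11.4% were lower and 16.8% and 13.7% higher in these pairs. This filter takes both libraries of a pair together, so a gene can drop out through its own fall. Of 18 with at least 10 CPM in either library, 1 was at least 2-fold lower and 1 at least 2-fold higher in each pair. Of all 7186 and 7153 genes at that level, 11.7% and 13.1% were lower and 17% and 14.3% higher. The median log2 ratio of the 18 genes was 0.31 and 0.22. The one that was lower was Pigv, a mannosyltransferase of the anchor, at 12.9 CPM in library 5 and 6.05 CPM in library 7. Of 5 other GPI-anchored proteins with at least 10 CPM, 2 were at least 2-fold lower and 1 at least 2-fold higher in library 7 than in library 5, and 1 was lower and 1 higher in library 8 than in library 6. Among all genes these shares were 9.75% lower and 16.8% higher in the first pair, and 11.4% and 13.7% in the second. Cd55, which shields cells from complement, was at 34.2 CPM in library 5 and 4.70 CPM in library 7. Cd52 was at 5406 and 2589 CPM, close to Ly6d in library 5 but not in library 7. Cd24a was the one that was higher, with 517 and 1083 CPM.

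Ly6a and Ly6e are known interferon-response genes, so a list of 18 such genes was read beside them. Of 9 tested between libraries 7 and 5, 2 were at least 2-fold lower and 1 at least 2-fold higher. Of 10 tested between libraries 8 and 6, 3 were lower and 1 was higher, and the median log2 ratio was -0.68 and -0.84. Among all genes tested, 9.75% and 11.4% were lower and 16.8% and 13.7% higher in these pairs. Of 11 with at least 10 CPM in either library, 4 were lower and 1 was higher in each pair, and the median log2 ratio was -0.70 and -0.89. At that level 11.7% and 13.1% of all genes were lower and 17% and 14.3% higher. The 4 that were lower were Irf1, Irf7, Irf9, and Samhd1, and Irf7, a factor that drives interferon genes, was at 10.6 CPM in library 5 and 2.62 CPM in library 7. Samhd1, which depletes nucleotides, was at 141 CPM in library 5 and 23.2 CPM in library 7. Isg15, a ubiquitin-like modifier, was higher instead, with 25.2 and 116 CPM. The abundant members had lower ratios than the median of this list in both pairs, but they were chosen by their levels in these libraries. The ranges overlapped, since Samhd1, with log2 ratios of -2.61 and -2.67, was below Ly6k in both pairs.

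Of 9 tested factors known to control Ly6d or the B cell program, 2 were at least 2-fold lower and 2 at least 2-fold higher in both pairs. The other one, Prdm1, which drives the plasma cell program, dropped out of the filter over both libraries and had the lowest ratios of the list, with 11.6 and 13.5 CPM in libraries 5 and 6, 1.40 and 1.25 CPM in libraries 7 and 8, and log2 ratios of -3.05 and -3.44. Of all 10, each with at least 10 CPM in either library, 3 were thus lower and 2 higher. Among all genes tested over both libraries, 9.75% and 11.4% were lower and 16.8% and 13.7% higher in the pairs. Among those of at least 10 CPM in either library, 11.7% and 13.1% were lower and 17% and 14.3% higher. Pax5 was at 174 CPM in library 5 and 60.8 CPM in library 7, and Foxo1 at 79.9 and 25.8 CPM. Ebf1, which drives the early B cell program, was at 1220 and 631 CPM and did not reach 2-fold. Irf4, which rises on activation and in plasma cells, was at 4.91 and 43.8 CPM and passed the filter through libraries 7 and 8, and Id2, an inhibitor of E proteins, at 15.4 and 121 CPM.

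To compare cells of equal depth, each cell was thinned to 5000 UMIs, which left 17872 cells (4038, 4600, 5388, and 3846 in libraries 5, 6, 7, and 8). The median cell then held 24 Ly6d UMIs in libraries 5 and 6 and 0 in libraries 7 and 8. Ly6d was seen in 99.98%, 99.8%, 38.8%, and 39.7% of cells, and before thinning in 99.95%, 99.9%, 48.6%, and 49.2%. Nearly every cell of libraries 5 and 6 thus held the transcript. The 10th percentile of library 5 was 11 Ly6d UMIs, and this count was reached by 91.5% and 90.6% of the cells of libraries 5 and 6 and by 4.60% and 5.59% of those of libraries 7 and 8. The 5% of cells with the most Ly6d held 12.0% and 12.3% of its UMIs in libraries 5 and 6, but 47.8% and 46.5% in libraries 7 and 8.

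Of 336 cells of library 7 and 247 cells of library 8 with 20 or more Ly6d UMIs before thinning, 0 shared a barcode with a cell of library 5 or 6, and of all 5621 and 4003 cells 14 and 6 did. At so low a rate, a count of 0 says nothing of the source of these UMIs. No set of cells of another type was defined here in which the background of Ly6d could be measured. The part of free RNA in the low counts of libraries 7 and 8 was not tested.

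Ly6e had the next widest presence, with a UMI in 99.1%, 99.5%, 43.6%, and 46.9% of cells. Ly6a was seen in 80.1%, 80.6%, 25.4%, and 26.2%, Lynx1 in 39.5%, 39.7%, 5.49%, and 5.95%, and Ly6k in 16.4%, 15.2%, 5.98%, and 6.40%. Before thinning these shares were 99.98% for Ly6e, 87.0% for Ly6a, 58.2% for Lynx1, and 18.8% for Ly6k in library 5. For scale, Jchain, whose UMIs sat in few cells, was seen in 0.526%, 1.09%, 1.02%, and 1.08% of the cells that held under 20 of its UMIs before thinning. Ly6c2 was seen in 0.763%, 0.870%, 0.160%, and 0.275% of cells before thinning and in 0.421%, 0.413%, 0.0742%, and 0.104% after it. Jchain had 1628, 4303, 4510, and 1377 UMIs in these libraries, far more than Ly6c2. Its share is thus no measure of the background of Ly6c2. Ly6c1 was seen in at most 0.0743% of the thinned cells. The part of free RNA in these shares was not tested. In libraries 5 and 6, 4.46% and 4.24% of the cells held a UMI of all 5 abundant members, and 0 and 1 cells held none of them. In libraries 7 and 8 none of the 5 was seen in 32.6% and 30.5% of the cells.

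**Figure D2:**
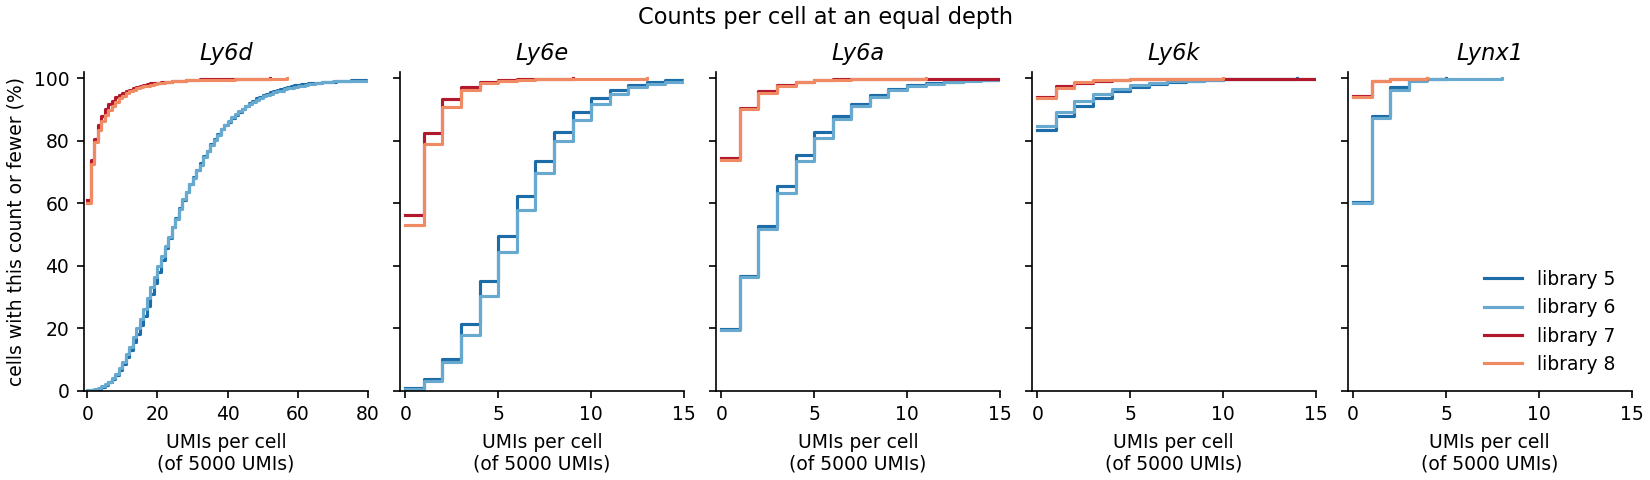
Share of cells (y axis, percent) with a given number of UMIs or fewer (x axis) for 5 LY6 family transcripts after thinning each cell to 5000 UMIs, with a line for each library. The Ly6d lines of libraries 5 and 6 pass their median at 24 UMIs, and those of libraries 7 and 8 start at 61.2% and 60.3% of cells with no UMI, while the Ly6k lines start at 83.6% or above in every library.

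Ly6k and Lynx1 had like means in library 5, 0.548 and 0.552 UMIs per thinned cell, but were spread differently over the cells. For Lynx1 the share of cells without a UMI was 60.5%, against 57.6% if all cells had the same expected count. For Ly6k it was 83.6%, against 57.8%. The variance was 4.50 times the mean for Ly6k and 1.18 times the mean for Lynx1. The 5% of cells with the most Ly6k held 56.9% and 62.2% of its UMIs in libraries 5 and 6, and for Lynx1 this share was 24.5% and 26.1%. Ly6k was thus found in few cells with many UMIs (up to 55 in a cell of library 5 before thinning), and Lynx1 in many cells with few.

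The spread between cells was put on 1 scale as the squared coefficient of variation (CV) beyond counting error, which is the variance minus the mean, divided by the squared mean. For Ly6k it was 6.40 and 7.72 in libraries 5 and 6, the 10th and 9th highest of 2091 and 2139 genes with at least 50 CPM. For Ly6a it was 0.576 and 0.584 (ranks 127 and 119), for Lynx1 0.317 and 0.471, for Ly6d 0.239 and 0.258, and for Ly6e 0.0689 and 0.0641. The median over genes was 0.0907 in library 5, so that Ly6e, alone among the 5 members, was below it in libraries 5 and 6. In libraries 7 and 8 Ly6k was still the highest of the 5, at 20.98 and 15.9, and the order below it changed. The value of Ly6d was 5.24 in each of these libraries (ranks 21 and 24 of 2441 and 2334 genes). Lynx1 came next, at 4.131 and 3.599, then Ly6a at 2.91 and 2.92 and Ly6e at 0.792 and 0.955. Ly6k and Lynx1 were under 50 CPM in libraries 7 and 8 and were not ranked among genes there. Ly6d was thus above the median of genes in every library (ranks 431 and 386 in libraries 5 and 6), and far more uneven in libraries 7 and 8 than in libraries 5 and 6.

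**Figure D3:**
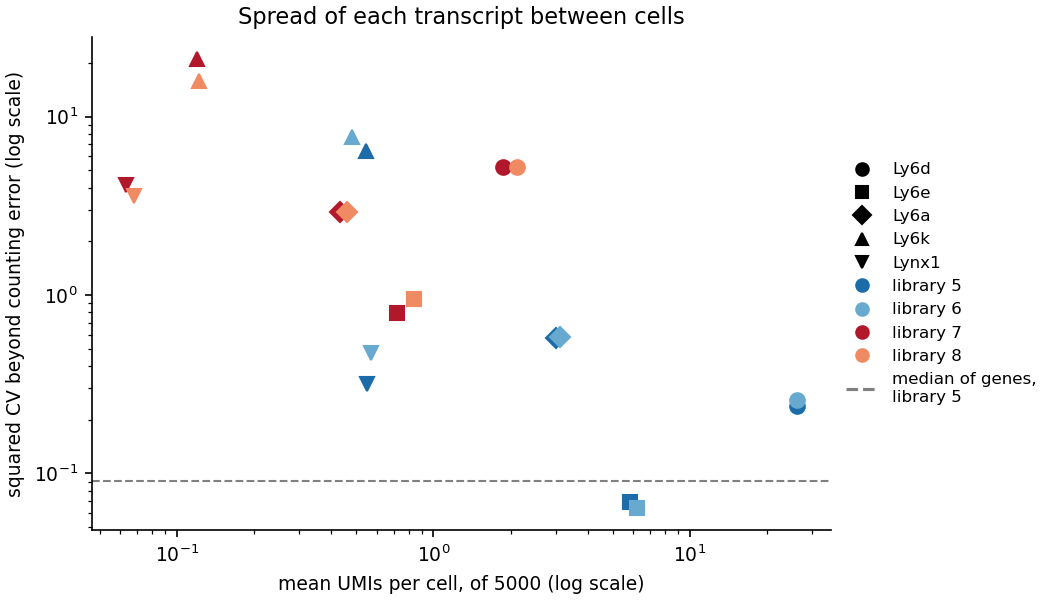
Squared CV beyond counting error (y axis, log scale) against the mean number of UMIs per cell thinned to 5000 UMIs (x axis, log scale) for 5 LY6 family transcripts, with shapes for genes and colors for libraries. Ly6k lies at 6.40 and 7.72 in libraries 5 and 6, while Lynx1 at nearly the same mean lies at 0.317 and 0.471, and the dashed line is the median of genes in library 5.

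Next, the cells of each library were put in 4 bins by their thinned Ly6d count. In libraries 5 and 6 the bins were of about the same size, from 0 to 16 UMIs up to 33 to 148 UMIs in library 5 and from 0 to 15 up to 34 to 138 in library 6. In libraries 7 and 8 they were 0, 1 to 2, 3 to 7, and 8 or more UMIs. Lynx1, the neighbor of Ly6d, was higher in each next bin of every library. The same was true of Ly6e and of Ms4a1 and Ms4a6b, which encode CD20 and a relative of it. Such steps were thus not particular to the neighbor. In library 7, Ms4a1 went from 19.8 through 38.3 and 55.1 to 86.6 CPM. Lynx1 went from 56.6 CPM (50.1 to 63.7) in the lowest bin of library 5 through 96.3 and 119 to 166 CPM (156 to 177) in the highest. In library 6 it went from 60.04 to 179 CPM. In library 7 it went from 4.67 to 59.7 CPM and in library 8 from 4.40 to 62.9 CPM.

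Ly6k was lower in the highest than in the lowest bin of libraries 5 and 6. It was at 131 CPM (121 to 141) in the lowest Ly6d bin and at 92.5 CPM (84.6 to 100.96) in the highest bin of library 5, and at 109 and 63.0 CPM in library 6. In the bins between, Ly6k was at 109 and 110 CPM in library 5 and at 108 and 107 CPM in library 6. In libraries 7 and 8 Ly6k was higher in the highest than in the lowest bin, with 14.0 and 63.4 CPM in library 7 and 14.0 and 82.0 CPM in library 8. Ly6a and Ly6e were higher in the highest than in the lowest bin of all 4 libraries. Ly6e was higher in each next bin of every library, and Ly6a was so except in library 5. There Ly6a was at 606 and then 591 CPM in the bins between. In library 5 Ly6a was at 552 and 669 CPM and Ly6e at 1073 and 1254 CPM, and in library 8 Ly6a was at 58.8 and 223 CPM and Ly6e at 111 and 377 CPM. Ly6k UMIs sit together in few cells, so the counting intervals of Ly6k are too narrow for the variation between cells.

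**Figure D4:**
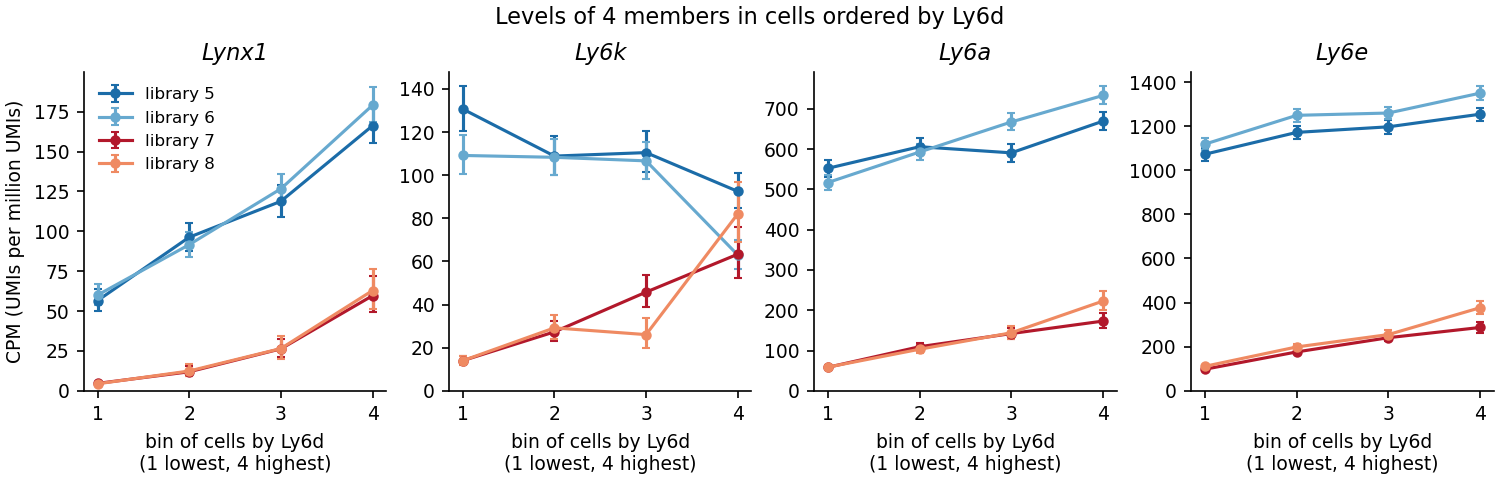
Levels of Lynx1, Ly6k, Ly6a, and Ly6e (y axes, CPM, each from 0) in 4 bins of cells by Ly6d count (x axes, from the lowest to the highest), with lines for libraries and bars for 95% Poisson intervals. Lynx1 goes from 56.6 to 166 in library 5 and from 4.67 to 59.7 in library 7, and Ly6k is lower in the highest than in the lowest bin of libraries 5 and 6 and higher in the highest than in the lowest bin of libraries 7 and 8.

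In libraries 7 and 8, cells with at least 5 Ly6d UMIs (645 and 528 cells) were also set against cells with none (3300 and 2318 cells), a cut chosen after the Ly6d counts were seen. Their depth before thinning was alike, with medians of 10426 against 10471 UMIs in library 7 and 9711 against 10223 UMIs in library 8. Lynx1 was 10.2-fold and 11.8-fold higher in the cells with Ly6d, Ly6k 4.43-fold and 4.42-fold, Ly6e 2.81-fold and 3.06-fold, and Ly6a 2.72-fold and 3.31-fold. Lynx1 was at 47.4 against 4.67 CPM and at 51.9 against 4.40 CPM. It thus passed the filter of 10 CPM only through the cells with Ly6d, where it was high. At least a 2-fold higher level was found for 0.385% of 6493 genes and 0.675% of 6375 genes in this comparison, and a 2-fold lower level for 0.108% and 0.125%. Ms4a1, which encodes CD20, was at 77.5 against 19.8 CPM and 130 against 19.4 CPM. Il10 was at 220 against 274 CPM and 216 against 271 CPM. Over the Ly6d bins of libraries 5 and 6, Il10 went the other way. It was at 4.75 CPM in the lowest and 19.7 CPM in the highest bin of library 5, and at 4.70 and 15.6 CPM in library 6.

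As a description, the genes most like each abundant member over cells were ranked by the lower of the Pearson correlations in libraries 5 and 6, among 2091 genes of at least 50 CPM. The cells of a library share their depth range and preparation, and most of the correlations were weak. For Ly6d the first was Ms4a6b (r = 0.31 and 0.35), a relative of CD20, and the second was Lynx1 (0.31 and 0.34, and 0.34 and 0.37 in libraries 7 and 8). Bcl2a1b and Bcl2a1d, near-identical copies of a survival gene, and Cd52 followed. In turn, Ly6d was the first gene for Lynx1. For Ly6a the first was Ifi27l2a, an interferon-induced gene (0.33 and 0.28), followed by Cd74, H2-Eb1, Ms4a1, and H2-Aa, of which 3 serve antigen presentation by MHC class II. For Ly6e the first were Cd79a (0.32 and 0.29), Malat1, Cd79b, Dnajc7, and Mzb1. No gene exceeded 0.08 for Ly6k in both libraries, and Ly6d was the lowest of all (-0.10 and -0.09). With cells thinned to 5000 UMIs, the correlation of Ly6d and Lynx1 was 0.26 and 0.25 in libraries 5 and 6.

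In libraries 5 and 6, cells with at least 5 UMIs of the chemokine genes Ccl3 and Ccl4 in sum (126 and 128 cells) were then set against those with under 5 (4070 and 4586 cells). The former were deeper, with medians of 14848 against 8646 UMIs in library 5 and 13921 against 8704 UMIs in library 6. Ly6d was at 5506 against 5257 CPM in library 5 and at 5136 against 5205 CPM in library 6, with log2 ratios of 0.07 (0.04 to 0.09) and -0.02 (-0.05 to 0.01). The size of the Ly6d ratio was small in each library. Its sign differed between them at this cut but not at a cut of at least 1 UMI, where the log2 ratio in library 6 was 0.016.

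Ly6a was lower in the cells with Ccl3 and Ccl4. It was at 434 against 588 CPM in library 5 and at 393 against 612 CPM in library 6, with log2 ratios of -0.44 (-0.53 to -0.35) and -0.64 (-0.74 to -0.54). Ly6e was at 976 against 1159 CPM and at 986 against 1222 CPM, with log2 ratios of -0.25 and -0.31. Lynx1 was at 99.4 against 112 CPM and at 100.7 against 117 CPM, with log2 ratios of -0.17 (-0.37 to 0.02) and -0.21 (-0.41 to -0.02). Of the 5 members, 0 in library 5 and 1 (Ly6a) in library 6 were at least 1.5-fold lower, against 5.72% of 6416 genes and 5.65% of 6490 genes.

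Ly6k was higher in the cells with Ccl3 and Ccl4. It was at 178 against 110 CPM in library 5 and at 142 against 97.4 CPM in library 6, with log2 ratios of 0.70 (0.55 to 0.85) and 0.54 (0.37 to 0.71). It was at least 1.5-fold higher in library 5 and not in library 6, against 7.62% and 7.16% of genes. This depended on the cut and the depth. In library 5 the log2 ratio was 0.28 at a cut of at least 1 UMI, 0.37 at one of at least 10 UMIs, and 0.53 in thinned cells, all under 1.5-fold, and in library 6 it was 0.39, 0.82, and 0.71, of which the last 2 were over 1.5-fold. A Ly6k UMI was found in 25 of 126 thinned cells (19.8%, 13.3% to 27.9%) against 16.3% (15.1% to 17.5%) in library 5, and in 28 of 127 (22.0%, 15.2% to 30.3%) against 15.02% (14.0% to 16.1%) in library 6. The share was higher in the cells with Ccl3 and Ccl4 in both libraries, and the difference was not put to a test.

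Near the cut, Ly6a, Ly6e, and Ly6k differed in direction between the libraries, while Ly6d was lower and Lynx1 higher just inside the cut in both. Cells with 3 to 4 UMIs (47 and 48 cells) and with 5 to 6 UMIs (24 and 25 cells) had Ly6a levels of 492 and 548 CPM in library 5 and of 583 and 420 CPM in library 6. Ly6k was at 82.0 and 257 CPM in library 5 and at 136 and 113 CPM in library 6. Ly6d was at 5767 and 5554 CPM in library 5 and at 5531 and 4927 CPM in library 6. Lynx1 was at 86.1 and 109 CPM in library 5 and at 124 and 130 CPM in library 6, with intervals that overlap.

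The same cut in libraries 7 and 8 took 673 and 512 cells. Ly6a was lower there too, at 58.3 against 91.5 CPM and at 58.6 against 96.4 CPM, with log2 ratios of -0.65 (-0.78 to -0.52) and -0.72 (-0.87 to -0.57). Ly6a, Ly6e, and Lynx1 all had log2 ratios below 0 in all 4 libraries. Ly6a was the lowest of them in each, and Lynx1 was close to it in libraries 7 and 8. Ly6a in both libraries and Lynx1 in library 8 were at least 1.5-fold lower, as were 0.413% of 6530 genes and 0.389% of 6425 genes, and no member was 1.5-fold higher, as 0.521% and 0.654% of genes were. Lynx1 had log2 ratios of -0.57 and -0.63, and Ly6e of -0.35 and -0.36. In library 8 Lynx1 was at 8.39 against 13.0 CPM and passed the filter of 10 CPM only through the cells under the cut. Ly6k, which was higher in libraries 5 and 6, had log2 ratios of -0.36 (-0.60 to -0.13) and -0.14 (-0.38 to 0.10). In library 5 the B cell genes Ms4a1 and Cd79b were also lower in the cells with Ccl3 and Ccl4, at 1072 against 1522 CPM and at 1424 against 2198 CPM. Their part in the ratios of the members was not tested.

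Few cells were rich in Jchain, which links the subunits of secreted IgM and IgA and marks antibody-secreting cells. At least 20 Jchain UMIs were found in 17, 31, 45, and 17 cells of libraries 5, 6, 7, and 8. They were also high in Ighm (61731 against 3382 CPM in library 5 and 68522 against 1186 CPM in library 7) and in Xbp1, a factor of the secretory program (1500 against 77.6 CPM and 655 against 106 CPM). Sdc1, the gene of CD138, had 1 UMI in the 17 cells of library 5 (4.49 against 0.179 CPM). In the 31 cells of library 6 it had 5 UMIs (10.3 against 0.117 CPM). It went the other way in libraries 7 and 8, with 4 UMIs and 1 UMI (5.81 against 7.47 CPM and 3.41 against 6.17 CPM).

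Ly6a was higher in these cells in all 4 libraries. It was at 1038 against 577 CPM in library 5, 862 against 600 CPM in library 6, 282 against 84.6 CPM in library 7, and 300.01 against 89.0 CPM in library 8. The log2 ratios were 0.85 (0.65 to 1.03), 0.52 (0.38 to 0.66), 1.73 (1.52 to 1.94), and 1.75 (1.43 to 2.06). Ly6a was at least 2-fold higher in libraries 7 and 8, where 5.94% and 7.38% of genes were, and not in libraries 5 and 6, where 9.09% and 7.54% of genes were. In library 5 this depended on the setting, since other cuts and denominators gave log2 ratios of up to 1.16, which is over 2-fold. The ratios stayed at or below 0.83 in library 6 and at or above 1.73 and 1.46 in libraries 7 and 8.

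Ly6d had opposite signs in the libraries. The Jchain-rich cells had less of it in libraries 5 and 6, with 2915 against 5282 CPM and 3485 against 5218 CPM, and more of it in libraries 7 and 8, with 901 against 370 CPM and 869 against 399.5 CPM. The log2 ratios were -0.86 and -0.58, and 1.28 and 1.12. The levels of Ly6d in the Jchain-rich cells of libraries 5 and 7 were nearer to each other than those of the remaining cells. Ly6e showed the same signs, with 764 against 1152 CPM and 1048 against 1213 CPM in libraries 5 and 6 and 325 against 146 CPM and 365 against 164 CPM in libraries 7 and 8. The reversal in Ly6e was small in library 6 (log2 ratio -0.21, -0.34 to -0.09) and was 0.0195 when mitochondrial, ribosomal protein, and immunoglobulin genes were left out of the denominator. In libraries 5 and 6 the log2 ratios of Ly6e, -0.59 and -0.21, were near the median of all genes, -0.52 and -0.31. Its sign there is thus not set apart from the shift of all genes.

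Lynx1 was nearly missing from the Jchain-rich cells of library 5, where it had 1 UMI (4.49 CPM, 0.114 to 25.02) against 112 CPM in the other cells. In library 6 it was at 51.3 CPM (33.2 to 75.7) against 117 CPM, and in library 7 it had 2 UMIs (2.90 CPM, 0.352 to 10.5) against 12.3 CPM. In library 8 it was higher instead, with 6 UMIs (20.5 CPM, 7.51 to 44.5) against 12.2 CPM and a log2 ratio of 0.75 (-0.71 to 1.88). Ly6k was at 94.3 against 113 CPM, 142 against 99.0 CPM, 36.3 against 23.4 CPM, and 40.9 against 25.2 CPM in libraries 5, 6, 7, and 8. Its log2 ratios were -0.27 (-0.96 to 0.35), 0.52 (0.15 to 0.86), 0.63 (0.00 to 1.20), and 0.70 (-0.26 to 1.51), and the first was 0.047 with the denominator named above. At least a 2-fold lower level was found for 28.6%, 15.2%, 12%, and 10.1% of genes in libraries 5, 6, 7, and 8, and the median log2 ratio of all genes was -0.52, -0.31, -0.39, and -0.16. Every ratio in these cells is relative to that shift. Of the 12 Ly6c2 UMIs of library 7, 5 were in 3 of its 45 Jchain-rich cells, a log2 ratio of 6.03 (4.03 to 7.90), against 1 UMI in library 5 and 0 in libraries 6 and 8. These classes hold too few cells to order the libraries.

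Proliferating cells were set apart by Mki67, with at least 3 UMIs against 0, which took 237, 322, 227, and 189 cells. These cells were deeper, with medians of 16697 to 19030 UMIs against 8465 to 10119 UMIs. Ly6a was lower in them in all 4 libraries, with 381 against 610 CPM, 394 against 640 CPM, 72.0 against 87.3 CPM, and 78.8 against 89.6 CPM, and log2 ratios of -0.68, -0.70, -0.28, and -0.19. It was at least 1.5-fold lower in libraries 5 and 6, where 2.83% and 3.24% of genes were, and not in libraries 7 and 8, where 4.53% and 4.55% of genes were. Ly6d and Ly6e were near the other cells in libraries 5 and 6 (log2 ratios of -0.15 to -0.02) and higher in libraries 7 and 8 (0.54 and 0.56 for Ly6d, 0.71 and 0.70 for Ly6e), where Ly6e passed 1.5-fold in each. At least a 1.5-fold higher level was found for 11.9%, 12.4%, 6.55%, and 7.33% of genes in libraries 5, 6, 7, and 8. Ly6k had log2 ratios of 0.00, -0.03, and -0.02 in libraries 5, 6, and 7 and of 1.02 (0.77 to 1.26) in library 8. Lynx1 had log2 ratios of -0.10, -0.38, -1.09, and -0.56, the last 2 from 25 and 30 UMIs in the cells with Mki67.

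**Figure D5:**
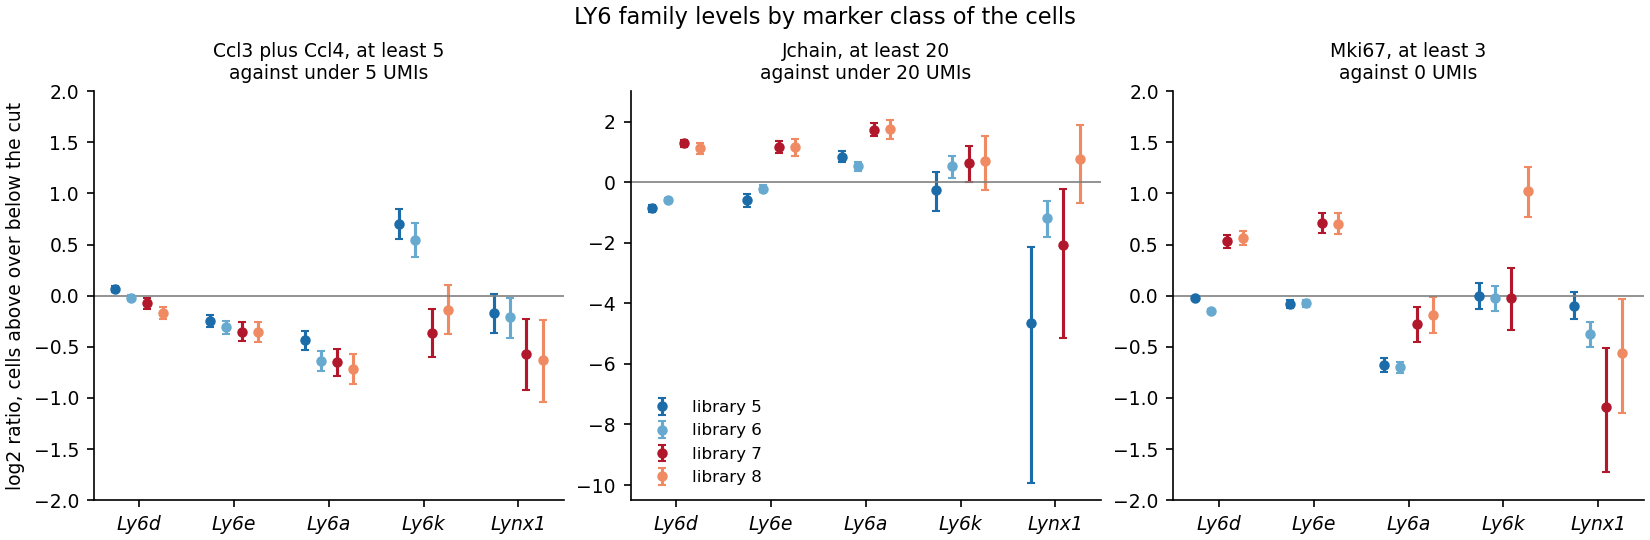
Log2 ratio of 5 LY6 family transcripts (y axes, which differ between panels) between cells above and below a cut in Ccl3 plus Ccl4, Jchain, or Mki67, with points for libraries and bars for 95% intervals of counting error. Ly6a lies below 0 for Ccl3 plus Ccl4 and for Mki67 and above 0 for Jchain in all 4 libraries, whereas Ly6d and Ly6e change sign between libraries 5 and 6 and libraries 7 and 8 for Jchain. For Ly6e the Jchain ratios in libraries 5 and 6, -0.59 and -0.21, are near the median of all genes, -0.52 and -0.31.

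Last, cells with at least 5 Ly6k UMIs (420, 413, 94, and 73 cells) were set against those with none, a class also chosen after its values were seen. The Ly6k-rich cells were deeper. Their medians were 10988, 11377, 12674, and 13469 UMIs against 8591, 8635, 10275, and 9980 UMIs in libraries 5, 6, 7, and 8. In libraries 5 and 6 few genes set the Ly6k-rich cells apart. At least a 1.5-fold difference was found for 4 lower and 5 higher of 6404 genes in library 5 (0.0625% and 0.0781%) and for 4 lower and 6 higher of 6486 genes in library 6 (0.0617% and 0.0925%), and Ly6k itself is among the higher ones. Jchain (140 against 73.5 CPM) and Il10 (17.1 against 10.5 CPM) were also among them in library 6. In library 5 Jchain was at 46.6 against 37.1 CPM and Il10 at 13.5 against 14.1 CPM. Ly6d was at 4757 against 5475 CPM and at 4766 against 5390 CPM, with log2 ratios of -0.20 and -0.18, whereas Ly6a, Ly6e, and Lynx1 had log2 ratios between -0.07 and 0.04. In libraries 7 and 8 the Ly6k-rich cells had more of all these members, with Ly6d at 724 against 376 CPM and at 1155 against 387 CPM and Ly6a at 163 against 84.2 CPM and at 138 against 89.3 CPM. Jchain was at 185 against 64.2 CPM in library 7 and at 0 against 27.4 CPM in library 8. Mki67 was at 34.4 against 28.0 CPM in library 7 and at 87.0 against 29.2 CPM in library 8. These classes are small, and 1.96% of 6525 genes and 4.5% of 6419 genes were at least 1.5-fold higher and 2.24% and 3.65% at least 1.5-fold lower.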

How the data were processed

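scRNA-Seq libraries were made by the authors with the 10x Genomics 3' v3 chemistry from 2 samples of Bregs-CpG and 2 samples of Bregs-TLR. The deposited values are whole UMI counts per gene and barcode. The authors counted them with Cell Ranger (version 3.1.0) on mm10 after demultiplexing with bcl2fastq, and combined the libraries with a step of the same program that can thin reads to even their depth. The counts used here are otherwise not normalized and not imputed.

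The barcode list holds 19920 entries for 35989 matrix columns. The barcodes were put on the last columns. Mean expression was compared between the 400 columns before and the 400 columns after each position, and the shifts where libraries 5, 6, 7, and 8 would start were at percentiles 99.5, 71.6, 100, and 88.5 of all columns. With the barcodes on the first columns, the starts of libraries 6, 7, and 8 were at percentiles 57.8, 84.9, and 85.4. The border between libraries 5 and 6 is therefore not marked by the counts, and that between libraries 7 and 8 is not clearly marked. The split within each of these pairs thus rests on the order of the barcode list. The 16069 columns that come before the ones used, which no barcode names, were left out.

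Cells with at least 1000 genes and under 10% mitochondrial UMIs were kept. UMIs were summed over the cells of a library or class and divided by their total (CPM). Exact intervals at 95% followed the Poisson distribution for CPM, the conditional binomial for ratios, and the Clopper-Pearson method for percentages (SciPy, version 1.17.1; NumPy, version 2.4.6; Python, version 3.11.15). Cells were thinned to 5000 UMIs by drawing without replacement (17872 cells kept, 662 shallower cells left out). Doublets were not called, and none was removed. Genes with at least 10 CPM over both sets of a comparison were counted as at least 2-fold (libraries, Jchain, Ly6d) or 1.5-fold (Ccl3 plus Ccl4, Mki67, Ly6k) different. Correlations used log counts per 10000 UMIs. The calculations were tested on simulated data. Normalization factors by trimmed mean of M values (TMM) were computed with edgeR (version 4.0.16). Gene positions are from GENCODE vM21 on GRCm38, and 3' ends were aligned with Biopython (version 1.88).

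Genes named were the members, the lists of the LY6 family, GPI anchors, interferon response and regulators of Ly6d, the other genes of the locus, cell type markers, and the 5 genes most correlated with each of Ly6d, Ly6a, and Ly6e. The same ranking for Ly6k and Lynx1, the Mki67, Ly6d, and Ly6k classes, Il10 in them, and genes named beside the classes were added later, with their values seen. The members, lists, and cuts were chosen with earlier results of these data known. No test between Bregs-CpG and Bregs-TLR was made, since no library names a sample. Alternatives covered the cell filter, the denominator, the scaling, the cuts, the depth, and, added after seeing the data, the filter on low genes in the lists.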

Additional observations from a re-analysis of the deposited data

How the results depend on the processing

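No paired analysis was possible because the barcodes name no sample, and the fits between Bregs-TLR and Bregs-CpG, with or without each replicate, were not run. The log2 ratio of Ly6d was -4.00 in library 7 over 5 and -3.82 in library 8 over 6 when mitochondrial, ribosomal protein, and immunoglobulin genes were left out of the denominator, -3.93 and -3.73 with TMM scaling, and -3.83 in library 7 over 5 without the 5% deepest cells, which left its counting interval but not its direction. The ratios of the 5 abundant members between these libraries stayed between -4.00 and -1.94 under every alternative run. With this reduced denominator the levels of the 5 members were 64.8% to 88.3% higher, and under the other alternatives they moved by -4.17% to 13.0%. Between Jchain classes 2 of 60 values changed sign, both with the reduced denominator, Ly6e in library 6 from -0.21 to 0.0195 and Ly6k in library 5 from -0.27 to 0.047. Between Ccl3 plus Ccl4 classes 1 of 40 did, Ly6d in library 6, from -0.019 to 0.016 at a cut of at least 1 UMI. The ratios of Ly6a between Ccl3 plus Ccl4 classes stayed below 0 (-0.68 to -0.30 in library 5 and -0.83 to -0.22 in library 6) and those of Ly6k above 0 (0.28 to 0.70 and 0.39 to 0.82). Without a filter on low genes, where 1 UMI can make a 2-fold difference, the numbers of genes at least 2-fold lower and higher were 1419 and 1427 (library 6 over 5), 1824 and 1262 (8 over 7), 3792 and 3827 (7 over 5), and 4105 and 3252 (8 over 6), against 3 and 1, 8 and 0, 648 and 1117, and 755 and 908 with it. For Ccl3 plus Ccl4 classes the numbers at least 1.5-fold lower and higher were then 4970 and 2090 in library 5 and 5137 and 2063 in library 6, against 367 and 489, and 367 and 465. With genes of at least 10 CPM in either library, an alternative chosen after seeing the data, 3 of 24 counts of list genes moved by over 1.5 times. Depth limits Ly6c1, Ly6c2, and Lynx1 in small classes.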
